A study of Mus musculus with 12 samples.

Results

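Complement is a cascade of plasma and membrane proteins, and the 8 genes described here are those of its components, receptors and membrane regulators that were listed by name for this report: C3, Cfp, Cfb, C3ar1, C5ar1, Cd55, Cd59a and Cr1l. All 8 were among the 12199 genes of the deposited count table, and all 8 were among the 12175 genes that passed the filter on low counts. They were chosen by name and not by a rule on a measured value, but with earlier results of these data known. RNA was sequenced from BM cells of mice of 4 genotypes. The study's methods name C57BL/6 for the WT mice, which came from a core facility, whereas the mutant mice came from crosses. Source and genotype thus cannot be told apart in the comparisons with WT. WT mice carried none of the alleles. DF mice carried 1 floxed Dnmt3a allele with the Mx-Cre transgene and 1 Flt3 allele with an internal tandem duplication. TF mice were heterozygous for a Tet2 loss-of-function allele and carried the same Flt3 allele. TFD mice combined the floxed Dnmt3a allele and Mx-Cre with the altered Tet2 and Flt3 alleles. Dnmt3a and Tet2 encode enzymes that add and oxidize methyl groups on DNA, and Flt3 encodes a receptor tyrosine kinase. All mice, WT included, received poly(I:C) when they were 8 to 10 weeks old, and BM was taken 8 to 9 weeks after that. Poly(I:C) induces interferon, which switches on Mx-Cre, so deletion is not restricted to 1 blood lineage. The WT mice had no Cre. The crosses described for TF mice hold none either, so TF mice also differ from DF and TFD mice in Cre. The sample labels name the material whole BM mononuclear cells, although late neutrophil transcripts were abundant in every library, as given at the end.

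There were 3 WT, 3 DF, 3 TF and 2 TFD libraries. TFD replicate 3 was not analyzed here. Library totals ranged from 8274153 to 15900904 counts, and between 12155 and 12195 genes were detected in each. Xist counts of 33978, 30976 and 42152 were found in WT replicate 3, TF replicate 3 and TFD replicate 2, against at most 538 in the other libraries, so the groups with 3 libraries held 1 such library in WT, 0 in DF and 1 in TF. The study's methods give each data point as 1 mouse, so the libraries are taken as separate mice.

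In the complement system, C3 is the central protein. Its cleavage gives C3b, which coats surfaces, and C3a, which acts on C3ar1. Factor B, the product of Cfb, is the protease subunit of the C3 convertase of the alternative pathway, and properdin, the product of Cfp, stabilizes that convertase. C5ar1 binds C5a and is a chemoattractant receptor of neutrophils and other myeloid cells. Host cells limit complement at their surface: Cd55 speeds the decay of C3 convertases, Cr1l (also known as Crry) is a rodent regulator with decay-accelerating and cofactor activity for C3b and C4b, and Cd59a blocks assembly of the membrane attack complex. Most plasma complement comes from the liver, whereas neutrophils and monocytes are known sources of properdin.

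Levels of different genes were compared per length of transcript, as RPKM. In WT mice, C3 was highest at 186 ± 29.9 RPKM and Cfp followed at 79.1 ± 7.73 RPKM (mean ± SD, n = 3). Cr1l, C5ar1 and Cd55 came next with 37.6 ± 1.60, 33.7 ± 6.5 and 33.5 ± 3.22 RPKM, and C5ar1 and Cd55 differed by less than their spread. The 3 WT libraries of Cd55 (29.8, 35.8 and 35.0 RPKM) lay below the 3 of Cr1l (37.6, 39.2 and 36.0 RPKM), whereas those of C5ar1 (34.5, 39.8 and 26.9 RPKM) lay on both sides of Cr1l. Cd59a had 1.61 ± 0.254 RPKM. Cfb and C3ar1 were lowest with 0.857 ± 0.200 and 0.774 ± 0.0227 RPKM, and the C3ar1 mean lay within the spread of Cfb. The lead of C3 over Cfp was seen in each genotype, with 265 against 117 RPKM in DF, 169 against 126 RPKM in TF and 213 against 94.1 RPKM in TFD mice. Cd55 came after Cr1l and C5ar1 in every genotype, but its distance to them differed: its mean level was 6.90 RPKM in DF, 6.44 RPKM in TF and 6.47 RPKM in TFD mice, below C5ar1 (22.6, 14.9 and 17.8 RPKM) and Cr1l (41.2, 39.0 and 36.4 RPKM).

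**Figure D1:**
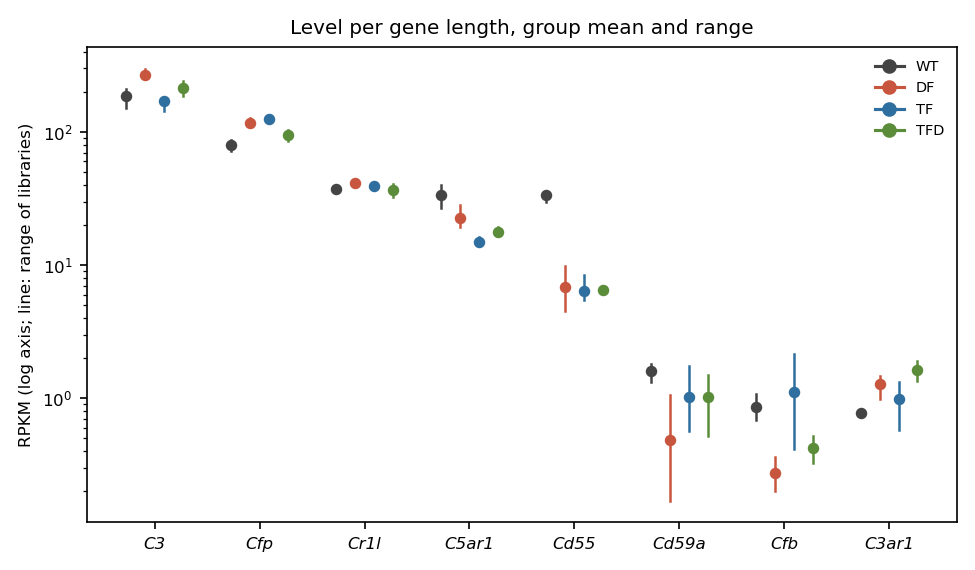
Level per length of each of the 8 genes in each genotype, in RPKM on a log axis. Points are group means and lines run over the range of the libraries, colored by genotype. C3 sits at the top in every genotype (mean 186 RPKM in WT mice), whereas Cfb, C3ar1 and Cd59a sit near or below a mean of 1.62 RPKM in every genotype.

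The first comparison asked how each mutant genotype differed from WT. A gene was called where edgeR's quasi-likelihood test gave a Benjamini-Hochberg adjusted p under 0.05 over all tested genes. In DF versus WT, 6 of the 8 genes were called, 2 higher (C3 and Cfp) and 4 lower (Cd55, C5ar1, Cfb and Cd59a). The background was 37.6% of all tested genes called, 21.0% higher and 16.6% lower. With scaling by library totals in place of TMM factors, the split over all genes changed from 2560 higher and 2023 lower to 1926 higher and 2622 lower. In TF versus WT, 3 of 8 were called, 1 higher (Cfp) and 2 lower (Cd55 and C5ar1), against a background of 34.6%, with 19.0% higher and 15.6% lower. In TFD versus WT, 3 of 8 were called, 1 higher (C3ar1) and 2 lower (Cd55 and C5ar1), against a background of 26.3%, with 14.7% higher and 11.6% lower. Cd55 and C5ar1 were thus called lower in each mutant genotype, as were 7.90% of all tested genes, and none was called higher in each, against 11.1%. The mutant groups were compared with the same WT libraries. The median log2 fold change of the 8 genes was −0.22 in DF, −0.04 in TF and −0.33 in TFD mice, beside 0.05, 0.02 and 0.01 over all tested genes. The libraries of the mutant group and WT did not overlap for 6 of 8 genes in DF mice, for 3 in TF mice and for 4 in TFD mice, against 51.3%, 49.0% and 49.5% of all tested genes. The counts for TF and TFD were close to the background, and nothing is read from them about the genes as a set.

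**Figure D2:**
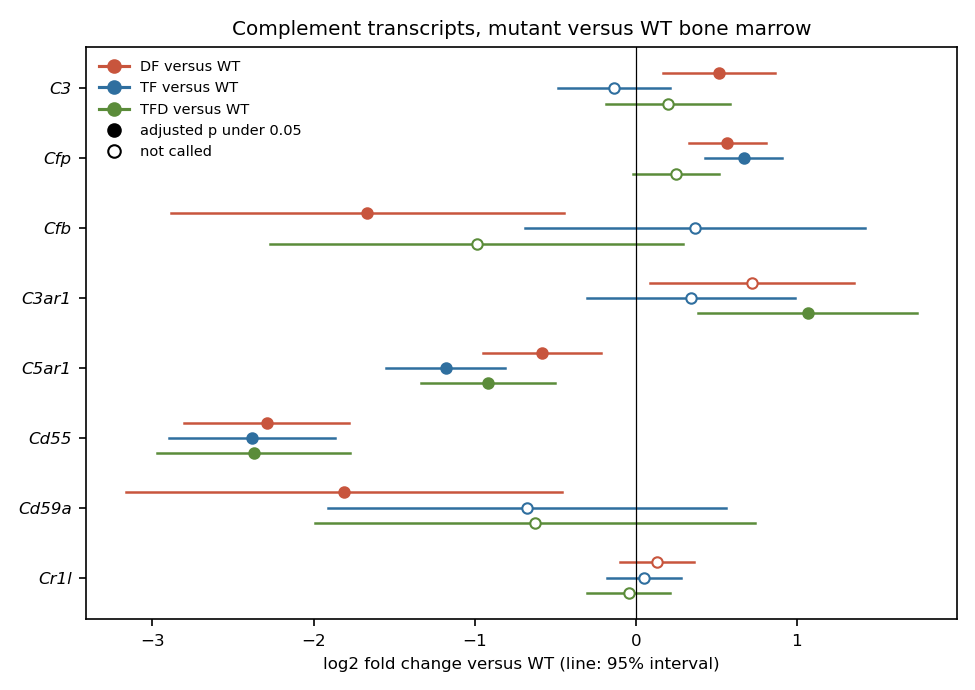
Log2 fold change of the 8 complement genes in each mutant genotype relative to WT from the edgeR fit, with 95% confidence intervals, filled where called at an adjusted p under 0.05. Cd55 lies at −2.29, −2.38 and −2.37, far below the other genes in TF and TFD mice, and the wide intervals of Cfb, Cd59a and C3ar1 go with their low counts.

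C3 lies at chr17:57203967-57228136 on the minus strand (mm10). C3 was at 1076, 1005 and 781 CPM in the WT libraries, 1280, 1276 and 1535 CPM in DF, 922, 942 and 744 CPM in TF and 1237 and 956 CPM in TFD. The DF libraries were all above the WT libraries, whereas the TF and TFD values overlapped those of WT. In DF mice C3 rose 1.43-fold (log2 fold change 0.51 ± 0.16 SE, edgeR adjusted p = 0.0240). The call was lost without WT replicate 3, where the log2 fold change was 0.35 (adjusted p = 0.122), or without DF replicate 3, where it was 0.39 (adjusted p = 0.107), and also without the 3 libraries with Xist reads, where it was 0.35 (adjusted p = 0.0553). In TF and TFD mice the log2 fold changes were −0.13 ± 0.16 SE (edgeR adjusted p = 0.540) and 0.20 ± 0.18 SE (adjusted p = 0.444).

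Markers of early granulocytes, the precursors that make primary granule proteins, were also higher in DF mice. In DF versus WT, 5 of 6 of these markers were called higher, and their summed level was 3018–3181 CPM in WT and 4732–6550 CPM in DF libraries. In TF mice, 1 of 6 was called higher (2782–4540 CPM), and in TFD mice 2 of 6 (3977–5786 CPM). Within DF, replicate 3 had the highest C3 level and the lowest early granulocyte sum, 4732 CPM against 6263 and 6550 CPM. Late neutrophil markers summed to 29294 CPM in DF replicate 3 against 19792 and 20879 CPM in the other two. Of 9 late neutrophil markers, 0 were called in DF versus WT. The 8 monocyte markers were called higher in DF and TF alike, and no liver marker of 4 listed was in the table. The part of these cells in the C3 values was not tested. In bulk RNA, fewer cells of a type and less RNA per cell cannot be told apart, and this holds for each result here.

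Cfp lies on the X chromosome at chrX:20925535-20931524, minus strand. Cfp was at 121, 132 and 109 CPM in the WT libraries, 167, 175 and 195 CPM in DF, 190, 184 and 201 CPM in TF and 157 and 130 CPM in TFD. Every DF and TF library lay above every WT library, and TFD replicate 2 lay within the WT range. Cfp rose 1.48-fold in DF (log2 fold change 0.57 ± 0.11 SE, edgeR adjusted p = 0.00165) and 1.59-fold in TF mice (0.67 ± 0.11 SE, adjusted p = 0.000707). In TFD mice the log2 fold change was 0.25 ± 0.12 SE, with a 95% interval from −0.01 to 0.52 (adjusted p = 0.152). The libraries with Xist reads had the lowest Cfp level of their group in WT and TFD and the highest in TF mice. With these 3 libraries left out, the log2 fold changes were 0.46 in DF, 0.56 in TF and 0.31 in TFD mice, and the calls in DF and TF were kept.

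Beside Cfp, monocyte markers were called higher, 8 of 8 in DF mice, 8 of 8 in TF mice and 7 of 8 in TFD mice. Their summed level was 2195–2510 CPM in WT, 8085–9038 CPM in DF, 6351–8695 CPM in TF and 7594–8354 CPM in TFD libraries. The monocyte sums of TFD lay within the range of TF. The Cfp mean was 143 ± 19.1 CPM (n = 2) in TFD and 192 ± 8.86 CPM (n = 3) in TF mice. Late neutrophil markers were called lower for 5 of 9 genes in TF, 2 of 9 in TFD and 0 of 9 in DF mice. Early granulocyte markers were called higher for 5 of 6 genes in DF, 1 of 6 in TF and 2 of 6 in TFD mice. The part of these cells in the Cfp values was not tested.

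Cfb lies at chr17:34856374-34862514 on the minus strand, and 6103 of its bases overlap Gm20547, a protein-coding gene on the same strand in GENCODE M21 that has no count in the table, so the assignment of reads is uncertain. Cfb had only 7 to 65 counts per library. Its levels were 2.96, 2.23 and 1.88 CPM in the WT libraries, 0.556, 0.708 and 0.990 CPM in DF, 2.18, 1.15 and 5.93 CPM in TF and 1.44 and 0.891 CPM in TFD. All DF and TFD libraries were below all WT libraries, and TF replicate 3 stood above every other library. Cfb fell in DF mice by 1.67 ± 0.56 SE on the log2 scale, or 3.17-fold (edgeR adjusted p = 0.0341). The TF value was 0.37 ± 0.49 SE on the log2 scale (adjusted p = 0.586), and the TFD value −0.99 ± 0.59 SE (adjusted p = 0.244). The TF value had the opposite sign, −0.51, without TF replicate 3. The DF call was lost with a term for libraries with Xist reads (adjusted p = 0.0535) and without WT replicate 1 (0.0960), WT replicate 2 (0.0643), DF replicate 1 (0.106) or DF replicate 2 (0.0957). TF replicate 3 also had the highest marker sums of the TF libraries for B cells (126 CPM against 29.5 and 30.3 CPM), T cells (69.0 against 33.1 and 30.3 CPM), erythroid cells (886 against 252 and 367 CPM), dendritic cells (167 against 76.0 and 44.9 CPM), macrophages (552 against 418 and 351 CPM) and stroma and endothelium (52.0 against 28.8 and 30.0 CPM). Their part in the Cfb values was not tested.

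**Figure D3:**
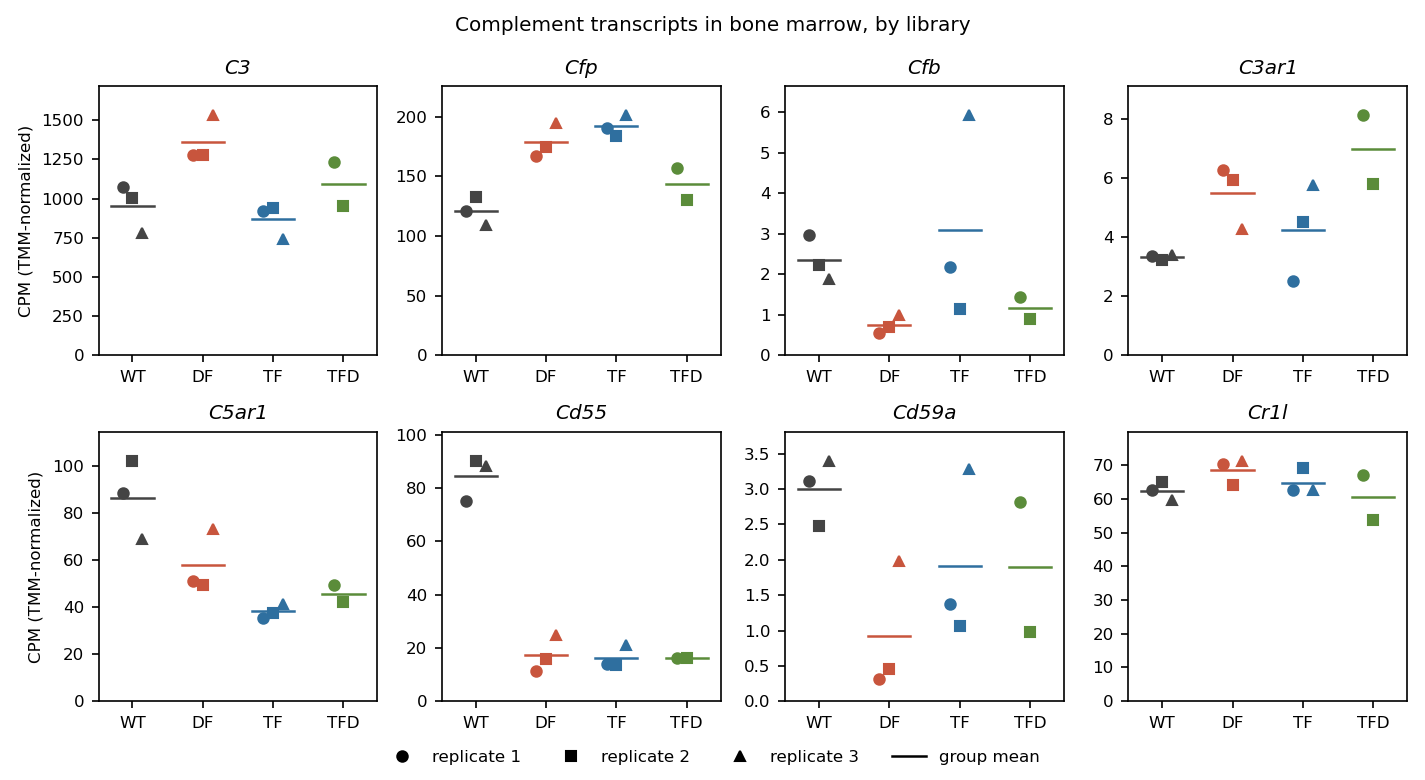
Level of each of the 8 genes in each of the 11 libraries, in TMM-normalized CPM, 1 panel per gene, with a line at the mean of each genotype. The 8 mutant libraries of Cd55 all lie at or below 24.9 CPM, under the lowest WT library at 75.4 CPM, whereas the libraries of Cr1l overlap.

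Cd55 is the gene with the strongest difference among the 8. It lies at chr1:130439030-130462740 on the minus strand and overlaps the antisense gene Gm16083 by 165 bases, and since the strand setting of the counting is not given, reads of that stretch cannot be told apart. Cd55 was at 75.4, 90.3 and 88.3 CPM in the WT libraries, 11.4, 15.9 and 24.9 CPM in DF, 13.8, 13.7 and 21.3 CPM in TF and 16.4 and 16.3 CPM in TFD. No mutant library reached the WT range. In DF mice Cd55 fell 4.90-fold (log2 fold change −2.29 ± 0.24 SE, edgeR adjusted p = 2.59e-05). The fall was 5.21-fold in TF mice (−2.38 ± 0.24 SE, adjusted p = 2.07e-05) and 5.17-fold in TFD mice (−2.37 ± 0.28 SE, adjusted p = 8.47e-05). These calls were kept in all 19 alternative fits. B cell markers fell with Cd55: 10 of 10 were called lower in DF, 9 of 10 in TF and 10 of 10 in TFD mice, with summed levels of 520–612 CPM in WT, 17.1–29.5 CPM in DF, 29.5–126 CPM in TF and 25.0 CPM in both TFD libraries. Erythroid markers were also called lower, for 8, 6 and 6 of 8 genes in DF, TF and TFD mice. So were NK cell markers, for 4, 4 and 3 of 6, and T cell markers, for 5, 1 and 4 of 8. The part of these cells in the Cd55 values was not tested.

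Because Cd55 moved most and C3 and Cfp moved the other way in DF mice, the 250 bases before the start of each of these genes are shown from RefSeq on GRCm38.p6, the same assembly as mm10. They run 5′ to 3′ in the direction of the gene, with matches to the searched motifs in capitals. The regions are chr1:130462745-130462994 for Cd55, chr17:57228137-57228386 for C3 and chrX:20931556-20931805 for Cfp, all on the minus strand.
Cd55: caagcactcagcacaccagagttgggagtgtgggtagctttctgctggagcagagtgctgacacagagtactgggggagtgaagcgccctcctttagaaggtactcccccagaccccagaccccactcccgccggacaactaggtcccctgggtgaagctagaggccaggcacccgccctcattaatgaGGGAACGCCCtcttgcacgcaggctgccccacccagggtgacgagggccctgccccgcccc
C3: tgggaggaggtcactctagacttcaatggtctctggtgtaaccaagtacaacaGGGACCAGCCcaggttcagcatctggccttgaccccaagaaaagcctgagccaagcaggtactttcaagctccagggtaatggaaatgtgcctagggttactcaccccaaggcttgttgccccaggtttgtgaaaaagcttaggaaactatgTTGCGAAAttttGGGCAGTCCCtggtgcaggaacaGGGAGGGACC
Cfp: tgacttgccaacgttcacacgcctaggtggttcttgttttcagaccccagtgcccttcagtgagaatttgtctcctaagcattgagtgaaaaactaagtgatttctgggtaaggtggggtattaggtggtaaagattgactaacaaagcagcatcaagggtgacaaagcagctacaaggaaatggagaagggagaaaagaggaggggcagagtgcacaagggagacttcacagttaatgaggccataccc

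The motifs were searched as exact letters on both strands, from 250 bases before to 50 bases after the start: GAGGAA (ETS-type), TTGCNNAA (C/EBP-type), TTCNNNGAA (STAT-type), 2 copies of GAAA with 2 bases between them (interferon response type), and GGGA and CC with 4 bases between them (NF-kB-type). RefSeq gave this region for 7 of the 8 genes, all but Cfb. Cd55 held 1 match to the NF-kB-type motif, 61 bases before the start. C3 held 1 match to TTGCNNAA at 45 bases before the start and 3 matches to the NF-kB-type motif at 197, 33 and 10 bases before it. Cfp held 2 matches to GAGGAA, both after the start, at 7 and 23 bases. Cd59a held 1 match to GAGGAA at 62 bases and 1 to the interferon response type at 187 bases before the start. The regions of Cr1l, C3ar1 and C5ar1 held none of the 5, and most of the C5ar1 region, chr7:16259289-16259588, lies inside the gene as the deposited annotation has it. Of 32851 promoters of the same length, 28.3% held GAGGAA, 20.7% the NF-kB-type motif, 10.8% TTGCNNAA, 8.30% TTCNNNGAA and 3.44% the interferon response type. These are matches of letters and not binding sites.

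Cd59a lies at chr2:104095801-104115410 on the plus strand and had 4 to 45 counts per library. Its levels were 3.12, 2.47 and 3.40 CPM in the WT libraries, 0.318, 0.450 and 1.98 CPM in DF, 1.37, 1.06 and 3.28 CPM in TF and 2.81 and 0.980 CPM in TFD. All DF libraries lay below all WT libraries, and 1 library of TF and 1 of TFD reached into the WT range. Cd59a fell in DF mice by 1.81 ± 0.63 SE on the log2 scale, or 3.51-fold (edgeR adjusted p = 0.0374). Without DF replicate 3 the value was −2.95. The call was lost without any 1 of the WT libraries, without DF replicate 1 (adjusted p = 0.132) or DF replicate 2 (0.142), and with a term for libraries with Xist reads (0.0558). In TF mice the log2 fold change was −0.68 ± 0.57 SE (adjusted p = 0.381), and in TFD mice −0.62 ± 0.63 SE (adjusted p = 0.502). With each library left out, these values ranged from −1.30 to −0.387 in TF and from −1.61 to −0.0948 in TFD mice. Erythroid markers fell as well: 8 of 8 were called lower in DF, 6 of 8 in TF and 6 of 8 in TFD mice, with summed levels of 777–976 CPM in WT, 59.3–91.7 CPM in DF, 252–886 CPM in TF and 233–375 CPM in TFD libraries. Their part in the Cd59a values was not tested.

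Cr1l, the third regulator, lies at chr1:195103788-195131570 on the minus strand. Cr1l was at 62.5, 65.1 and 59.8 CPM in the WT libraries, 70.2, 64.1 and 71.3 CPM in DF, 62.5, 69.1 and 62.7 CPM in TF and 67.2 and 53.8 CPM in TFD. The libraries of all genotypes overlapped, and Cr1l was the only gene of the 8 that was called in no comparison with WT. Its log2 fold change in DF mice was 0.13 (95% interval −0.10 to 0.36, edgeR adjusted p = 0.341). It was 0.05 in TF mice (−0.18 to 0.28, adjusted p = 0.725) and −0.04 in TFD mice (−0.30 to 0.21, adjusted p = 0.822). These intervals do not reach the 4.90-fold to 5.21-fold falls of Cd55.

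C5ar1 lies at chr7:16246743-16259540 on the minus strand. C5ar1 was at 88.6, 102 and 69.1 CPM in the WT libraries, 51.2, 49.6 and 73.2 CPM in DF, 35.5, 37.6 and 41.5 CPM in TF and 49.4 and 42.2 CPM in TFD. All TF and TFD libraries lay below all WT libraries, and DF replicate 3 lay within the WT range. C5ar1 fell 2.27-fold in TF (log2 fold change −1.18 ± 0.17 SE, edgeR adjusted p = 0.00029) and 1.89-fold in TFD mice (−0.92 ± 0.19 SE, adjusted p = 0.004). Both calls were kept in all 19 alternative fits, but the TFD call was lost where a change of at least 2-fold was also asked for. In DF mice it fell 1.5-fold (−0.58 ± 0.17 SE, adjusted p = 0.0162), a call that was lost without WT replicate 2 (adjusted p = 0.077), DF replicate 1 (0.0635) or DF replicate 2 (0.0760).

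Late neutrophil markers, the secondary and tertiary granule proteins and surface receptors of maturing neutrophils, were called lower for 5 of 9 genes in TF mice, 2 of 9 in TFD mice and 0 of 9 in DF mice. Their summed level was 18638–27990 CPM in WT, 19792–29294 CPM in DF, 12557–17175 CPM in TF and 11369–19119 CPM in TFD libraries. The part of these cells in the C5ar1 values was not tested.

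C3ar1 lies at chr6:122847140-122856157 on the minus strand and had 26 to 130 counts per library. Its levels were 3.37, 3.22 and 3.40 CPM in the WT libraries, 6.27, 5.92 and 4.26 CPM in DF, 2.51, 4.5 and 5.75 CPM in TF and 8.13 and 5.79 CPM in TFD. The DF and TFD libraries all lay above the WT libraries, and the TF libraries lay on both sides of them. C3ar1 rose 2.10-fold in TFD mice (log2 fold change 1.07 ± 0.31 SE, edgeR adjusted p = 0.0244). This call was lost without any 1 of the WT libraries, at adjusted p values of 0.0563 to 0.0637, and without TFD replicate 1, where the log2 fold change was 0.80 (adjusted p = 0.188). In DF mice the log2 fold change was 0.72 ± 0.29 SE (adjusted p = 0.0681), which became a call in a fit of only the WT and DF libraries (adjusted p = 0.0297) and without TF replicate 1 (0.0340) or TF replicate 3 (0.0407). In TF mice it was 0.34 ± 0.30 SE (adjusted p = 0.393). The monocyte markers given beside Cfp were called higher in each mutant genotype, and their part in the C3ar1 values was not tested.

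The second comparison asked whether the mutant genotypes differed from each other. In DF versus TF, 2 of the 8 genes were called, 1 higher and 1 lower in DF, against a background of 5.94% of all tested genes, 1.67% higher and 4.27% lower. The libraries of 3 of the 8 genes did not overlap, against 25.9% of all tested genes. C3 was 1.57-fold higher in DF than in TF mice (log2 fold change 0.65 ± 0.16 SE, edgeR adjusted p = 0.0349), with every DF library at or above 1276 CPM and every TF library at or below 942 CPM. Without DF replicate 3 the C3 value was 0.53 (adjusted p = 0.154) and without TF replicate 3 it was 0.55 (adjusted p = 0.141). Cfb was 4.09-fold lower in DF than in TF mice (−2.03 ± 0.55 SE, adjusted p = 0.0481), and without TF replicate 3 the value was −1.16 (adjusted p = 0.220). Neither gene was called in the fits without WT replicate 2, any DF library, TF replicate 1 or TF replicate 3. The C3 call was lost in 7 of 19 alternative fits, also with library totals (0.0539). The Cfb call was lost in 12, also with a replicate block (0.0576), only the groups compared (0.0905) or a term for libraries with Xist reads (0.114). It was lost too without WT replicate 1 (0.0575), WT replicate 3 (0.0596) or the libraries with Xist reads, where the value was −1.20. C5ar1 had non-overlapping libraries in DF and TF, with a log2 fold change of 0.60 ± 0.17 SE that was not called by edgeR (adjusted p = 0.0590) and was called by DESeq2 (adjusted p = 0.0244). The falls of Cd55 in DF and TF differed by 0.09, with a 95% interval from −0.43 to 0.61.

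None of the 8 genes was called in DF versus TFD or in TF versus TFD by edgeR. The background was 0% in DF versus TFD, where edgeR called 0 of 12175 genes, 1727 had an unadjusted p under 0.05 and DESeq2 called 258, and 0.0164% in TF versus TFD, with 0.00821% higher and 0.00821% lower. The libraries did not overlap for 3 of 8 genes in DF versus TFD and for 4 in TF versus TFD, against 29.1% and 22.3% of all tested genes. For Cfp, TF and DF libraries all lay above both TFD libraries. Its log2 fold change was 0.42 in TF versus TFD (95% interval 0.15 to 0.69, unadjusted p = 0.00505, edgeR adjusted p = 0.304) and 0.32 in DF versus TFD (0.05 to 0.59, adjusted p = 0.276). For Cd55 it was −0.01 in TF versus TFD (−0.59 to 0.57, adjusted p = 0.993) and 0.08 in DF versus TFD (−0.50 to 0.66, adjusted p = 0.921).

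Of 52 other complement genes considered by role, 20 were in the table and 19 passed the filter. In DF, 3 were called higher and 5 lower versus WT; in TF, 3 and 3; and in TFD mice, 2 and 4. Beside them stand the backgrounds of 37.6%, 34.6% and 26.3% of all tested genes called, and nothing is read from these counts, or from those by role, about complement genes as a set. The list held 16 genes of recognition and initiation, of which 7 were tested. Of these, 2 rose and 4 fell in DF, 1 rose and 1 fell in TF, and 1 rose and 3 fell in TFD mice. Of 7 tested receptors, 1 rose and 1 fell in DF, 2 rose and 2 fell in TF, and 1 rose and 1 fell in TFD mice. The 2 convertase and terminal components, the 2 soluble regulators and the 1 membrane regulator counted here, Cd46, were not called in any comparison. The largest log2 fold changes in these roles in TFD versus WT were 0.66 for C8g (edgeR adjusted p = 0.382), 1.01 for Clu, the gene of clusterin (adjusted p = 0.169), and −0.36 for Cd46 (adjusted p = 0.445). Clu had 5.19 CPM in TFD replicate 1 and 1.60 CPM in TFD replicate 2, against 0.990 to 2.77 CPM in the WT libraries.

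The 3 chains of C1q, the recognition molecule of the classical pathway, fell together in DF mice. C1qa was at 18.6, 10.6 and 20.8 CPM in the WT libraries and at 2.54, 3.8 and 3.56 CPM in DF. The log2 fold changes in DF were −2.34 for C1qa (edgeR adjusted p = 0.00101), −2.0 for C1qb (adjusted p = 0.000557) and −1.99 for C1qc (adjusted p = 0.00103). In TF mice they were −0.35, −0.52 and −0.33, with no call, and C1qa reached 23.5 CPM in TF replicate 3 against 7.19 and 8.92 CPM in the other two TF libraries. In TFD mice the C1qa value was −1.29 (adjusted p = 0.050, not called), with 8.01 and 5.61 CPM, below all WT libraries. C1qb (−1.20, adjusted p = 0.0255) and C1qc (−1.23, adjusted p = 0.0341) fell in TFD mice, and these calls were lost without WT replicate 1, WT replicate 3 or TFD replicate 2, and that of C1qc also without the libraries with Xist reads (adjusted p = 0.0633). Fcna, a ficolin that binds sugars and starts the lectin pathway, fell in DF (−2.63, adjusted p = 0.000162) and TFD mice (−2.10, adjusted p = 0.00229). C1q and Fcna are known products of macrophages, and 6 of 8 macrophage markers were called lower and 1 higher in DF mice. Their summed level, 268–300 CPM in DF libraries, lay within the WT range of 253–366 CPM. In TF and TFD mice 2 were called lower and 2 higher, with sums of 351–552 and 359–546 CPM. The part of macrophages in these values was not tested.

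C1ra, the gene of a C1r protease of the C1 complex, rose in all mutant genotypes. Its level was 1.48, 2.23 and 1.61 CPM in WT, 9.61, 6.11 and 5.35 CPM in DF, 5.41, 8.18 and 3.92 CPM in TF and 6.38 and 3.65 CPM in TFD libraries. The log2 fold changes were 2.01 (edgeR adjusted p = 0.000967), 1.74 (adjusted p = 0.00295) and 1.54 (adjusted p = 0.0120). The TFD call was lost without TFD replicate 1, where the value was 1.06 (adjusted p = 0.146). C1rl, which encodes a related protease, rose in DF mice (1.11, adjusted p = 0.000261). The difference of DF and TF was called (0.91, adjusted p = 0.00769), whereas that of DF and TFD was not (0.94, adjusted p = 0.0993). The ficolin gene Fcnb, named after its values were seen, was the recognition gene called lower in TF mice (−1.49, adjusted p = 0.0446), with 10.7 CPM in TF replicate 3 against 94.9 and 121 CPM in the other two TF libraries. This call was lost in 9 of 19 alternative fits: with DESeq2 (adjusted p = 0.0732), with only the groups compared (0.0869), and without any 1 of the WT libraries (0.0667 to 0.118), any 1 of the DF libraries (0.0551 to 0.0605) or TF replicate 1 (0.0681). Without TF replicate 3 the Fcnb value was −0.98.

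Among the receptors, Cr2, the C3d receptor of B cells and follicular dendritic cells, fell in every mutant genotype. It was at 37.4, 35.3 and 25.8 CPM in WT and between 0.0808 and 0.638 CPM in the mutant libraries, with DF, TF and TFD log2 fold changes of −6.44 (edgeR adjusted p = 1.79e-06), −6.95 (adjusted p = 8.07e-07) and −6.94 (adjusted p = 4.63e-06). The B cell markers given beside Cd55 fell in the same groups. Cd93, a membrane protein first described as a C1q receptor, rose from 188 ± 31.3 CPM in WT to 456 ± 44.5 CPM in DF, 404 ± 113 CPM in TF (SD, n = 3 each) and 413 ± 8.73 CPM in TFD mice (n = 2), with log2 fold changes of 1.28, 1.10 and 1.13 (adjusted p = 0.000273, 0.000937 and 0.00169). Itgam and Itgax, which encode the alpha chains of complement receptors 3 and 4, differed between DF and TF: Itgam was higher in DF (0.64, adjusted p = 0.0363) and Itgax lower (−1.93, adjusted p = 0.00681). The Itgam call was lost in 8 of 19 alternative fits, among them those with library totals (0.0518), without the libraries with Xist reads (0.0734), or without WT replicate 1 (0.0537), DF replicate 2 (0.0946), DF replicate 3 (0.175), TF replicate 1 (0.0951) or TF replicate 3 (0.137). Against WT, Itgam fell in TF (−0.53, adjusted p = 0.0212) and Itgax rose in TF mice (1.02, adjusted p = 0.0268). This Itgam call was lost without WT replicate 1 (0.0559), WT replicate 2 (0.0798), TF replicate 1 (0.0646) or TF replicate 3 (0.0628). The Itgax call was lost without TF replicate 3, where the value was 0.50 (adjusted p = 0.117), without WT replicate 2 (0.0803) or WT replicate 3 (0.0894), without the libraries with Xist reads (value 0.40, adjusted p = 0.227) and with only the groups compared (0.0555). Vsig4, a complement receptor of tissue macrophages, had 25, 7 and 20 counts in WT and 0 to 2 counts in each mutant library. It was removed by the filter on low counts, and no test of it is given here.

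**Figure D4:**
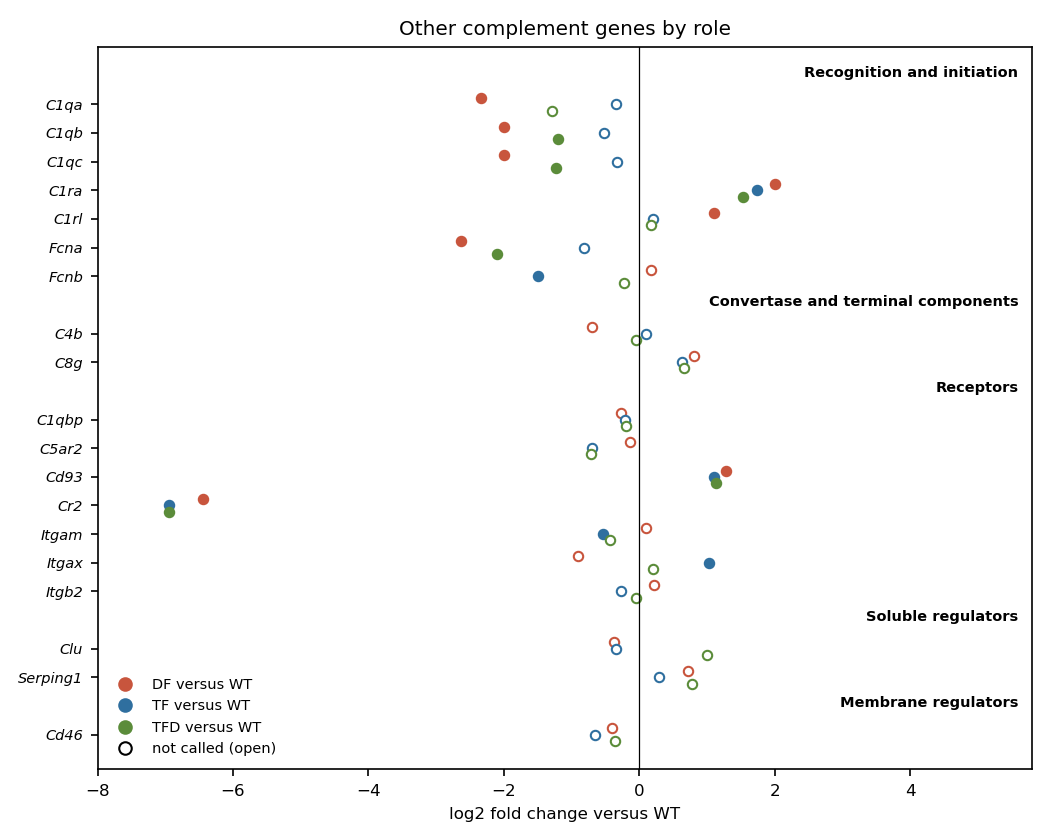
Log2 fold change versus WT of 19 other complement genes tested, grouped by role, for DF, TF and TFD mice, filled where called at an edgeR adjusted p under 0.05. Cr2 lies near −6.44 to −6.95 and the C1q chains lie lower in DF than in TF mice.

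The labels name BM, and the marker lists for its lineages were checked in every library. Late neutrophil, early granulocyte and monocyte markers had the highest sums. T cell markers summed to 56.4–63.7 CPM in WT, 21.0–34.2 CPM in DF, 30.3–69.0 CPM in TF and 18.4–28.2 CPM in TFD libraries, with 5, 1 and 4 of 8 called lower in DF, TF and TFD mice. Of 6 NK cell markers, 4, 4 and 3 were called lower. Of 5 dendritic markers, 3 were lower in DF, 2 were higher in TF, and 2 were higher and 2 lower in TFD mice. Of 6 megakaryocyte markers, 2 were lower in DF and 1 higher in TFD mice. Of 8 markers of eosinophils, basophils and mast cells, 2, 4 and 2 were lower and 1, 0 and 0 higher. Of 5 stromal and endothelial markers in the table, 1 was lower in DF mice. TF replicate 3 stood apart from TF replicates 1 and 2, as given beside Cfb.

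**Figure D5:**
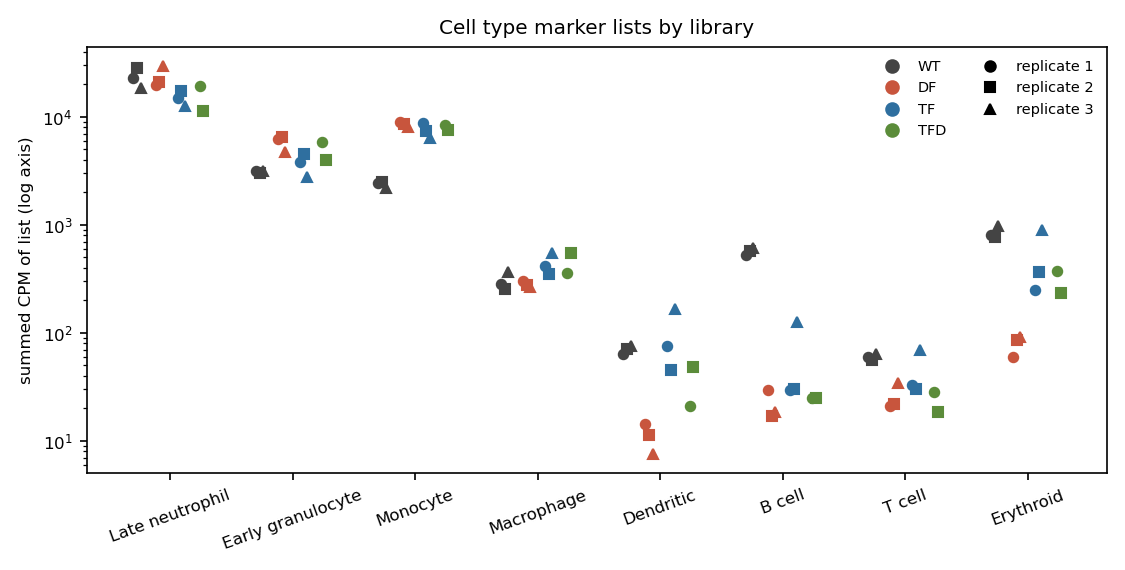
Summed level of each marker list in each library, in CPM on a log axis, by genotype. B cell markers sum to 520–612 CPM in WT and to at most 126 CPM in any mutant library, and monocyte markers to 2195–2510 CPM in WT and at least 6351 CPM in every mutant library.

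The genes whose levels ran most like those of each member were found by Pearson's r of log2 CPM over the 11 libraries. The libraries share genotypes, depth and cell makeup, and r is given as a description. Cd55 was nearest to Otud7b (0.990), Tapt1 (0.989) and Atp8a1 (0.988), and C5ar1 to Cyfip2 (0.985), Abcc5 (0.982) and Ampd3 (0.978). C3 was nearest to Ap5b1 (0.967), Sort1 (0.965) and Arfgap1 (0.960), and Cfp to Gm21188 (0.953), Lyz1 (0.952), a lysozyme gene, and Grcc10 (0.935). For Cfb the genes named are Cd4 (0.941) and Cd3e (0.936), both T cell genes. The likeness was lower for C3ar1, whose nearest gene was 2510009E07Rik (0.873), and Cd59a was nearest to Chic1 (0.936) and Cr1l to 2310001H17Rik (0.933).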

How the data were processed

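RNA from BM cells was depleted of globin transcripts and made into stranded total RNA libraries. The authors used STAR on mm10 and featureCounts on refGene, with unique alignments only, and deposited raw counts, log2 CPM values and gene lengths, a value of another kind. Tool versions and the strand setting are not given in the sources used here. The deposited log2 CPM values equal edgeR's cpm output with a prior count of 0.25 to within 5e-09, and so carry TMM factors (0.924 to 1.04). CPM and RPKM (CPM per kilobase of the deposited length) were computed here from the counts.

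Tested genes had over 0.5 CPM in more than 3 libraries, a filter that kept 12175 genes and removed 24. The test was the quasi-likelihood F test of edgeR 4.0.16 in R 4.3.3, with a mean per genotype, all 11 libraries in 1 fit, and Benjamini-Hochberg adjustment over all tested genes. SEs come from the F statistic. Library totals were 8274153 to 15900904, and the number of libraries limits the precision.

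Alternatives were DESeq2 1.42.0, RLE factors, library totals, no filter, only the groups compared, a replicate block, a term for the libraries that had 10000 or more Xist reads, a 2-fold rule and each library left out. Leaving out all libraries with Xist reads was chosen after seeing the data. On simulated counts with 200 changed genes among 12175, edgeR recovered 180 in DF versus WT, 80 of them changed 2-fold and 100 changed 4-fold. It made 4 false calls there. Recovery was lowest in TF versus TFD, with 168 recovered and 14 false calls. The simulated spread followed the trend over level and not each gene, so recovery for single genes such as Cfb was not shown.

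The members, the lists and the tests were chosen with earlier results of these data known. The text names the 8 members, other complement genes whose calls had 1 direction in all mutant genotypes or that differed between them, the largest change of each role in TFD versus WT, and genes most like a member. Fcnb and Vsig4 were named after their values were seen. Some genes that this rule selects are left out of the text, figures and list counts and are not reported here.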

Additional observations from a re-analysis of the deposited data

Results flagged for a closer look

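Values are log2 fold changes of DF versus TF mice, which differed by edgeR's test of the difference itself. Among the 8 genes these were C3 (0.65) and Cfb (−2.03), and both calls depended on single libraries as described above. Among the other complement genes they were C1qa (−1.99, adjusted p = 0.0187), C1qb (−1.48, adjusted p = 0.0225), C1qc (−1.66, adjusted p = 0.0200), Fcna (−1.81, adjusted p = 0.0150), C1rl (0.91), Itgam (0.64) and Itgax (−1.93). The calls of C1qa, C1qb and C1qc were lost without any 1 of the DF libraries, with adjusted p values from 0.0561 to 0.103. Without TF replicate 3 the value of C1qa was −1.28 and that of C1qb −0.92. That of Fcna was lost without DF replicate 2 (0.0862) or DF replicate 3 (0.0569), and that of Itgam in the 8 alternative fits given above. No group had more than 3 libraries, so no group was tested for a library far from the others.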

How the results depend on the processing

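Over 48 results (8 genes in 6 comparisons) there were 960 alternative values: 888 kept direction and side of the threshold, 46 lost and 4 gained a call, and 22 changed sign. Of 8 genes, 6 were called in DF versus WT, 3 with the 2-fold rule and 3 to 7 with each library left out (3 without WT replicate 2, DF replicate 1 or DF replicate 2). In DF versus TF 2 were called, 1 with library totals, only the groups compared, the replicate block, the Xist term, the 2-fold rule or without the libraries with Xist reads, and 0 to 2 with each library left out. Over all 12175 tested genes, 4583 were called in DF versus WT and 1533 with the 2-fold rule. Without WT replicate 2, DF replicate 1 or DF replicate 2 these were 3605, 3415 and 3448. In DF versus TF 723 were called, 765 with library totals and 397 with the 2-fold rule. Left-out libraries gave from 169 (without DF replicate 2) to 933 (without TF replicate 2). Nothing is read from the member counts about the genes as a set. No cause was tested. Sign changes were found for values near 0 or of few counts. With library totals, the log2 fold change of Cd55 was −0.0021 in DF versus TF and −0.020 in DF versus TFD, and that of Cr1l −0.0082 in DF versus TF. With the replicate block, Cd55 was −0.14 in DF versus TFD, and with the Xist term 0.0076 in TF versus TFD. Without the libraries with Xist reads, Cfb was −0.66 in TF versus WT, and Cr1l 0.075 in TFD versus WT, −0.0093 in DF versus TFD and −0.035 in TF versus TFD. With each library left out, Cfb ranged from −0.51 to 0.76 in TF versus WT, Cd55 from −0.27 to 0.32 in DF versus TF, −0.28 to 0.29 in DF versus TFD and −0.25 to 0.10 in TF versus TFD, Cd59a from −0.69 to 0.94 in TF versus TFD, and Cr1l from −0.21 to 0.11 in TFD versus WT, −0.0046 to 0.35 in DF versus TFD and −0.064 to 0.27 in TF versus TFD. Where 1 TFD library remained, it was assumed to vary like the other groups.

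Same-numbered libraries of different genotypes correlated at −0.30 to 0.25 in 15 pairs, 3 of them over 0.1, and 4 of 11 libraries were nearest to their own number, so the numbers were not taken to pair the libraries. With the replicate block the Itgam difference of DF and TF had an adjusted p of 0.0598. Over all genes, edgeR called 0 genes higher and 0 lower in DF versus TFD, against 8 and 34 with the replicate block, 26 and 109 with only the groups compared, 9 and 141 without the libraries with Xist reads, 103 and 155 with DESeq2, 237 and 147 without TFD replicate 1, 55 and 174 without TF replicate 3, and at most 2 and 13 without any other library that changed the count. In TF versus TFD it called 1 and 1, against 109 and 22 with DESeq2, 18 and 4 with the Xist term, 6 and 9 without the libraries with Xist reads, 0 and 0 with only the groups compared, 60 and 16 without TFD replicate 1, 25 and 1 without TF replicate 2, 3 and 3 without TF replicate 1 and 2 and 6 without TFD replicate 2. In DF versus TF it called 203 and 520, against 329 and 743 with DESeq2 and 106 and 659 with library totals. It called 107 and 278 without DF replicate 1, 38 and 131 without DF replicate 2 and 49 and 203 without DF replicate 3. Without TF replicate 1 the counts were 82 and 449, without TF replicate 2 they were 229 and 704 and without TF replicate 3 they were 72 and 269. In TF versus WT edgeR called 2317 and 1899, against 1688 and 1167 without TF replicate 1 and 1759 and 1310 without WT replicate 2. With the Xist term it called 2468 and 2135. The 2-fold rule left 664 and 869 in DF, 759 and 577 in TF and 705 and 645 in TFD versus WT, and 33 and 364 in DF versus TF. Cfb, Cd59a and C3ar1 had 4 to 130 counts per library, which limits what could be detected for them.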
